A study of Mus musculus with 4 samples.

Results

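Ribosome biogenesis factors are the nucleolar proteins that turn a long ribosomal RNA precursor into the RNAs of the small and large ribosomal subunits and assemble them with ribosomal proteins. The 42 genes described here were taken by symbol from a list of such factors, and all 42 were found among the 31748 gene symbols of the count tables. The list was chosen with earlier results of these data known. They were placed in 6 roles. The first held 4 proteins placed with the box C/D small nucleolar ribonucleoproteins (snoRNPs), among them Nolc1, a chaperone of snoRNPs and not a core protein. The other roles held 4 proteins of the box H/ACA snoRNPs, 4 abundant nucleolar proteins and 11 proteins of the small subunit processome. They also held 5 late factors of the small subunit and 14 factors of the large subunit. All 42 passed the filter on low counts, and the lowest count of any of them in a library was 304, for Fbl.

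RNA was sequenced from 4 libraries labelled as spleen CD4+ T cells, 2 of genotype TEaMthfd2 KO (KO) and 2 of genotype TEaWT (WT), from mice aged 8 weeks. TEa is a transgenic T cell receptor that recognises a donor peptide on a class II molecule, and both groups carried it by the labels. In both groups the T cells had been taken by positive magnetic selection and cultured for 3 days with antigen-presenting cells, treated with mitomycin, from spleens of F1 (BALB/c x C57BL/6) mice aged 8 weeks. Mthfd2 encodes a folate enzyme that works in mitochondria. The labels do not say how the gene was deleted or in which cells. Nor do they say that a group's libraries were separate mice or cultures, so the p-values measure spread that may be technical.

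Total counts were 14191401 and 14419298 in KO replicates 1 and 2, and 15955863 and 14686711 in WT replicates 1 and 2. Mthfd2 itself had 222 and 252 CPM (counts per 1000000 counts of the TMM-scaled library total) in KO libraries, against 279.8 and 280.5 CPM in WT libraries (log2 fold change -0.24 ± 0.14 SE, adjusted p = 0.324 by edgeR's quasi-likelihood test with Benjamini-Hochberg adjustment). Loss of a few exons need not show in such a count, so every direction rests on the labels. Counts of Cd8a were between 3.10 and 4.00 times those of Cd4 in each library, so the libraries do not match RNA of CD4+ T cells alone. Whether the Cd8a counts came from the selected T cells or from the added spleen cells was not tested. In bulk RNA, fewer cells of a type and less RNA per cell cannot be told apart.

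Ribosomes are built in the nucleolus, where RNA polymerase I makes the precursor and a sequence of particles folds, cuts and modifies it. The snoRNPs guide methylation (box C/D) and pseudouridylation (box H/ACA) of the RNA, the small subunit processome assembles on the precursor as it is made, and separate sets of factors carry each subunit to export. T cells that respond to antigen grow before they divide, and raised production of ribosomes is a known part of that growth.

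All 42 factors had a lower mean level in KO libraries than in WT libraries, and 12 of them fell. The 12 that fell were Rrp9, Wdr43, Wdr75 and Wdr3 of the small subunit processome, Bysl and Tsr1 of the late small subunit factors, and Nop2, Ppan, Rrs1, Gnl3, Ebna1bp2 and Rrp1b of the large subunit factors. KO libraries held between 43.2% and 55.0% of the WT level of these 12. The threshold was an adjusted p under 0.05 in edgeR, by which 1.56% of the 12752 genes tested were called lower in KO. Among the 6126 genes with a mean level at or above that of the lowest member, the share was 2.2%. None of the 42 rose by edgeR (2.39% of all genes tested did), by DESeq2 or by limma-voom, and 0 were higher at an unadjusted p under 0.05 (12.8% of all genes). At that unadjusted threshold 38 of the 42 were lower, against 12.7% of all genes tested.

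Over the 42 factors the log2 fold change had a median of -0.84 and lay between -1.21 and -0.19, while the median over all genes tested was near 0 (-0.0026). A negative log2 fold change was found for 50.2% of all genes tested. In 41 of the 42, both KO libraries lay below both WT libraries, an order found for 30.1% of all genes tested, and Fbl was the exception. For a gene picked as called lower, this order is no separate support. The adjusted p-values of the 12 called factors lay between 0.0400 and 0.0489, close to the threshold, and those of the next 3 (Ltv1, Rrp12 and Nip7) between 0.0501 and 0.0506. Without WT replicate 1, 4 of the 12 remained called (Rrs1, Ebna1bp2, Rrp1b and Rrp9; 1.05% of all genes were called lower), and without WT replicate 2, 30 members were called (8.63% of all genes). Without KO replicate 1 or without KO replicate 2 edgeR called 0 of the 42 and 0 genes in all, with 31 and 39 of the 42 lower at an unadjusted p under 0.05 (6.41% and 8.26% of all genes in the same fits).

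Other fits over all 4 libraries called between 8 and 35 of the 42 lower. DESeq2 called 35 (6.14% of all genes tested were lower by it) and limma-voom 21 (1.7%). In edgeR, upper quartile factors gave 8 (0.957%), DESeq2's size factors 12 (1.58%) and library size alone 14 (1.48%). With no filter on low counts edgeR gave 34 (3.72% of the 18347 genes then tested).

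**Figure D1:**
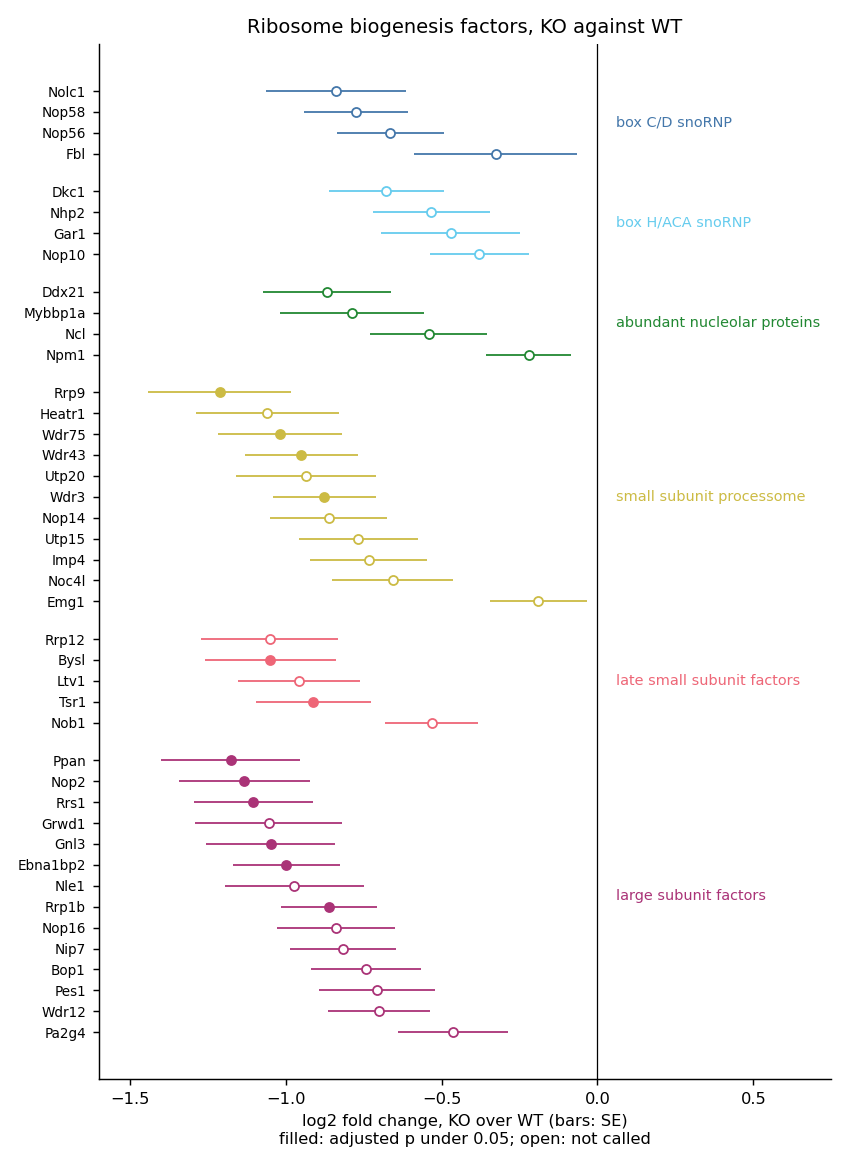
Log2 fold change of each of the 42 factors, KO over WT, with its SE, grouped by role; filled circles mark an adjusted p under 0.05. Every point lies left of 0, and the 12 filled points are in the small subunit processome, the late small subunit factors and the large subunit factors.

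Together the 42 factors held 0.820% of all counts in KO replicate 1 (95% Clopper-Pearson interval 0.815% to 0.825%) and 1.06% in KO replicate 2 (1.05% to 1.06%), against 1.65% in WT replicate 1 (1.64% to 1.66%) and 1.54% in WT replicate 2 (1.53% to 1.54%). These intervals cover counting error only. Over these genes the KO libraries were farther apart than the WT libraries: KO replicate 1 was below KO replicate 2 for 40 of the 42 factors, with a median ratio of 0.751, and WT replicate 1 was above WT replicate 2 for 32 of the 42, with a median ratio of 1.12. Relative to the WT mean of each gene, the median factor stood at 49.1% in KO replicate 1 and 63.9% in KO replicate 2.

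**Figure D2:**
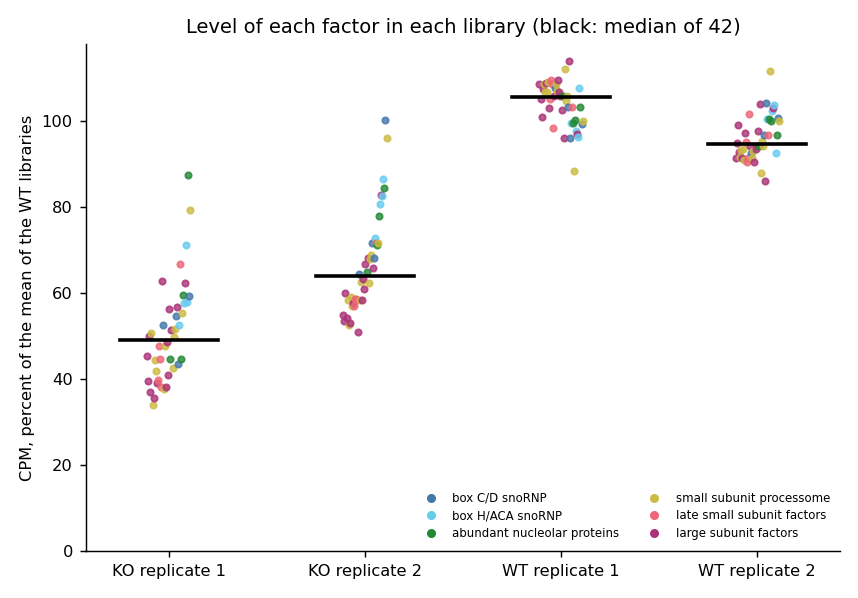
Level of each factor in each library as a percent of the mean of the WT libraries for that gene; 1 point per factor, coloured by role, and black bars for the median of the 42. The medians are 49.1% and 63.9% in KO replicates 1 and 2, and 105.5% and 94.5% in WT replicates 1 and 2.

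Markers of other cells moved in the same comparison, in which edgeR called 1.56% of all genes tested lower and 2.39% higher. The 10 B cell markers summed to 443 and 378 CPM in KO libraries, against 1252 and 755 CPM in WT libraries, and 4 of the 10 fell. The 9 MHC class II genes of antigen-presenting cells summed to 1278 and 1102 CPM in KO libraries, against 4023 and 2381 CPM in WT libraries, and 6 of the 9 fell. Within the KO pair, the order of these markers was opposite to that of the ribosome biogenesis factors: 8 of 10 B cell markers and 7 of 9 MHC class II genes were higher in KO replicate 1, the library in which 40 of the 42 factors were lower. Within the WT pair the order was the same: 10 of 10 B cell markers, 9 of 9 MHC class II genes and 32 of the 42 factors were higher in WT replicate 1. The myeloid list summed to 87.9 and 68.7 CPM in KO libraries, against 153 and 101 CPM in WT libraries (1 of 8 tested fell), and the erythroid list to 6.86 and 3.08 CPM in KO libraries, against 124 and 32.0 CPM in WT libraries (2 of 4 tested fell). Natural killer cell markers summed to 52.7 and 62.9 CPM in KO libraries, against 71.3 and 63.1 CPM in WT libraries, with 0 of 4 tested called by edgeR, DESeq2 or limma-voom and 1 lower in edgeR at an unadjusted p under 0.05. Of the T cell markers, 3 of 8 rose (Cd3d, Cd3e and Cd3g), and the list summed to 2297 and 2350.5 CPM in KO libraries, against 1423 and 1698 CPM in WT libraries. Cd8a and Cd8b1 summed to 947 and 1033 CPM in KO libraries and to 798 and 764 CPM in WT libraries, with 0 called by edgeR or limma-voom and 1 by DESeq2, and 1 higher in edgeR at an unadjusted p under 0.05. No marker was at 0 in all 4 libraries, but the myeloid markers Itgam and Csf1r had at most 0.424 CPM in any. The number of markers called moved with the fit. With upper quartile factors, 2 B cell markers, 2 MHC class II genes and 0 erythroid genes were called lower (0.957% of all genes). DESeq2 called 7, 7 and 3 of them lower (6.14% of all genes). The part of these cells in the levels of ribosome biogenesis factors was not tested.

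**Figure D3:**
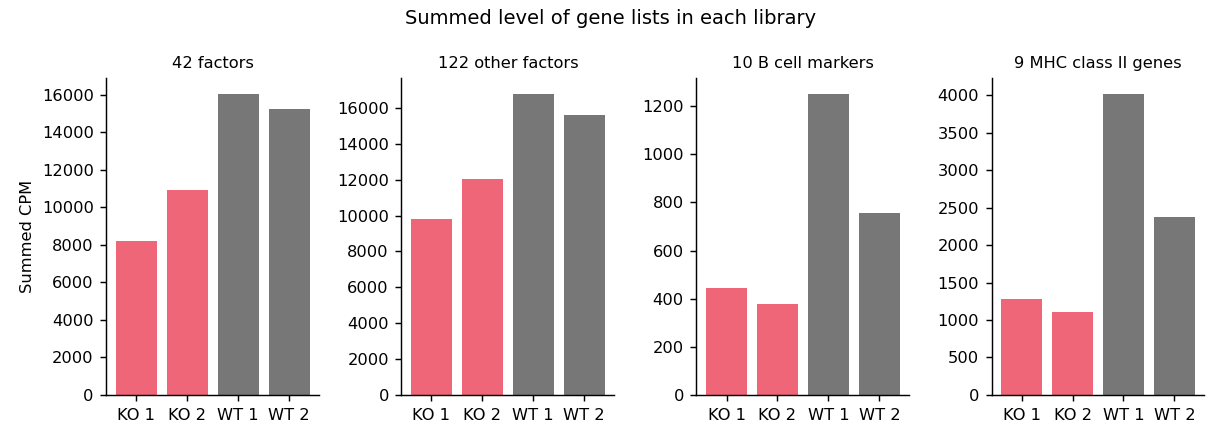
Summed CPM of the 42 factors, of 122 other ribosome biogenesis factors, of 10 B cell markers and of 9 MHC class II genes in each library, with KO libraries in red and WT libraries in grey. All 4 sums are lower in both KO libraries and highest in WT replicate 1, and KO replicate 1 is the lower KO library for the ribosome biogenesis lists and the higher one for the marker lists.

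The small subunit processome is the large particle that packs around the nascent precursor and prepares the small subunit RNA for its first cuts. Of its 11 members here, 4 fell (1.56% of all genes tested did), and the median log2 fold change was -0.88. Rrp9, a protein specific to the snoRNP at the centre of the processome, had 68.4 and 106 CPM in KO libraries, against 215 and 188 CPM in WT libraries. Its KO libraries lay far below both WT libraries, and its log2 fold change of -1.21 ± 0.23 (adjusted p = 0.0438) was the most negative of the 42 (chromosome 9, 106475963 to 106485424, GRCm38). Wdr43 and Wdr75 belong, with Heatr1 and Utp15, to the subcomplex that binds the precursor first and that is tied to its transcription. Wdr43 had 169.6 and 225 CPM in KO libraries, against 406 and 356 CPM in WT libraries (-0.95 ± 0.18, adjusted p = 0.0445; chromosome 17, 71615895 to 71659031). Wdr75 had 87.9 and 120.1 CPM in KO libraries, against 229.7 and 191 CPM in WT libraries (-1.02 ± 0.20, adjusted p = 0.0465; chromosome 1, 45795166 to 45823619). The groups did not overlap for either gene, and KO replicate 1 was the lowest library for both. Wdr3, of a second subcomplex, had 94.4 and 109 CPM in KO libraries, against 202 and 170.5 CPM in WT libraries (-0.88 ± 0.17, adjusted p = 0.0438; chromosome 3, 100138180 to 100162407).

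Heatr1, the most abundant processome transcript by CPM, did not pass at -1.06 ± 0.23 (adjusted p = 0.0535). It had 159.8 and 248 CPM in KO libraries, against 461 and 388 CPM in WT libraries, so a mean difference as large as that of Wdr75 came with a wider gap between the KO libraries. Utp20 (-0.93), Nop14 (-0.86), Utp15 (-0.77), Imp4 (-0.73) and Noc4l (-0.66), all of them structural parts of the processome, had adjusted p-values between 0.0535 and 0.101. Emg1, the methyltransferase of the small subunit RNA, differed least of the 42. It had 167 and 202 CPM in KO libraries, against 210.2 and 210.0 CPM in WT libraries (-0.19 ± 0.15, 95% interval -0.56 to 0.18, adjusted p = 0.480).

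Late factors, 5 in number with a median log2 fold change of -0.96, travel with the small subunit precursor from the nucleolus to the cytoplasm. Bysl, known as bystin, had 51.9 and 74.3 CPM in KO libraries, against 137 and 124 CPM in WT libraries (-1.05 ± 0.21, adjusted p = 0.0480; chromosome 17, 47599331 to 47611492). Tsr1, which holds the cytoplasmic precursor back from early translation, had 65.4 and 80.5 CPM in KO libraries, against 150.3 and 124 CPM in WT libraries (-0.91 ± 0.18, adjusted p = 0.0489; chromosome 11, 74898071 to 74909342). Both genes fell (1.56% of all genes tested did), and every KO value was under every WT value. That order is no separate support in genes picked as called. Rrp12, an export factor and the most abundant of these 5 by CPM, had 90.7 and 139 CPM in KO libraries, against 234 and 242 CPM in WT libraries, and was just outside the threshold (-1.05 ± 0.22, adjusted p = 0.0506). So was Ltv1, needed for export (-0.96 ± 0.20, adjusted p = 0.0501). Nob1, the endonuclease that makes the last cut of the small subunit RNA, had 90.7 and 97.6 CPM in KO libraries, against 141 and 132 CPM in WT libraries. Its difference was the smallest of these 5 (-0.53 ± 0.15, adjusted p = 0.0889).

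Factors of the large subunit made up the largest role, with 14 genes, of which 6 fell (1.56% of all genes tested did). The median log2 fold change of the 14 was -0.92. Nop2, a methyltransferase of the large subunit RNA, had 131 and 192 CPM in KO libraries, against 379.7 and 328 CPM in WT libraries (-1.13 ± 0.21, adjusted p = 0.0433; chromosome 6, 125131909 to 125144753). Ppan, whose yeast relatives act in early large subunit processing, had 75.3 and 113 CPM in KO libraries, against 231 and 194 CPM in WT libraries (-1.18 ± 0.22, adjusted p = 0.0441; chromosome 9, 20888175 to 20892178). KO replicate 1 was the lowest library for both, and the difference between the groups was larger than that within them. Rrs1 had 70.2 and 95.1 CPM in KO libraries, against 187 and 168 CPM in WT libraries (-1.10 ± 0.19, adjusted p = 0.0400; chromosome 1, 9545408 to 9547455). In yeast, Rrs1 helps to load a small ribosomal RNA into the large subunit precursor. Ebna1bp2, a nucleolar assembly factor, had 121 and 147 CPM in KO libraries, against 291 and 245 CPM in WT libraries (-0.997 ± 0.17, adjusted p = 0.0400; chromosome 4, 118620799 to 118627776).

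Gnl3 encodes nucleostemin, a nucleolar GTPase of proliferating cells. It had 109 and 161 CPM in KO libraries, against 287 and 271 CPM in WT libraries (-1.05 ± 0.21, adjusted p = 0.0477; chromosome 14, 31012433 to 31019152). Rrp1b, a nucleolar protein of the large subunit precursor, had 119 and 142 CPM in KO libraries, against 239 and 235 CPM in WT libraries (-0.86 ± 0.15, adjusted p = 0.0408; chromosome 17, 32036100 to 32062865). Its WT libraries were nearly equal, and both KO libraries lay far below them. The 3 subunits of the PeBoW complex, which the large subunit RNA needs for processing, gave -0.74 (Bop1), -0.71 (Pes1) and -0.70 (Wdr12), with adjusted p-values between 0.0610 and 0.0802. Grwd1 (-1.05), a chaperone of a ribosomal protein, Nle1 (-0.97), an adaptor of the remodelling enzyme Midasin, and the nucleolar proteins Nop16 (-0.84) and Nip7 (-0.82) had adjusted p-values between 0.0506 and 0.0591. Nip7 was 1 of the 2 members that were higher in KO replicate 1 than in KO replicate 2. Pa2g4, a growth-regulated protein that binds ribosomes, was the most abundant large subunit factor and the one that differed least. It had 465 and 617 CPM in KO libraries, against 723 and 767 CPM in WT libraries (-0.46 ± 0.18, adjusted p = 0.167).

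The 4 proteins placed with box C/D snoRNPs had a median log2 fold change of -0.72. Of the 4, edgeR called 0 lower (1.56% of all genes tested), DESeq2 3 (6.14%) and limma-voom 1 (1.7%). At an unadjusted p under 0.05 in edgeR, 3 were lower (12.7% of all genes tested). Nolc1, a chaperone of snoRNPs, had 259 and 406 CPM in KO libraries, against 571 and 619.6 CPM in WT libraries (-0.84 ± 0.22, adjusted p = 0.0819). The core proteins Nop58 and Nop56 gave -0.77 ± 0.17 (adjusted p = 0.0533) and -0.66 ± 0.17 (adjusted p = 0.0778). Fbl, the methyltransferase of these particles, had 21.5 and 36.4 CPM in KO libraries, against 36.0 and 36.6 CPM in WT libraries. Only KO replicate 1 was low, and KO replicate 2 lay above WT replicate 1, so the groups overlapped. The log2 fold change was -0.33 ± 0.26 (adjusted p = 0.472), and 0.0045 without KO replicate 1.

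The box H/ACA particle has 4 core proteins, and all of them are in the list. Their median log2 fold change was -0.50. EdgeR called 0 lower (1.56% of all genes tested), limma-voom 0 (1.7%) and DESeq2 1 (6.14%). In edgeR 3 had an unadjusted p under 0.05, all lower, against 12.7% of all genes tested. Dkc1, the pseudouridine synthase that is also part of telomerase, had 177 and 245 CPM in KO libraries, against 336 and 339 CPM in WT libraries (-0.68 ± 0.18, adjusted p = 0.0851). Its partners differed by less: Nhp2 gave -0.53, Gar1 -0.47 and Nop10 -0.38, with adjusted p-values between 0.144 and 0.239. Nop10 had 87.7 and 102 CPM in KO libraries, against 119 and 128 CPM in WT libraries, a narrow gap between groups that did not overlap.

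For the 4 abundant nucleolar proteins the median log2 fold change was -0.66. EdgeR called 0 of them lower (1.56% of all genes tested), limma-voom 0 (1.7%) and DESeq2 3 (6.14%). In edgeR 3 were lower at an unadjusted p under 0.05, against 12.7% of all genes tested. Ncl encodes nucleolin, which binds ribosomal DNA and its precursor RNA, and alone held between 22.7% and 26.4% of the counts of the 42 factors in a library. It had 2168 and 2841 CPM in KO libraries, against 3649.5 and 3640.1 CPM in WT libraries (-0.54 ± 0.19, adjusted p = 0.139). The WT libraries were nearly equal and the KO libraries were spread. Ddx21, an RNA helicase that couples RNA polymerase I transcription to processing, had 446 and 648 CPM in KO libraries, against 1056 and 941 CPM in WT libraries (-0.87 ± 0.21, adjusted p = 0.0635). Mybbp1a, a nucleolar regulator of RNA polymerase I, gave -0.79 ± 0.23 (adjusted p = 0.0988). Npm1, nucleophosmin, the chaperone of the outer layer of the nucleolus, had 543 and 524 CPM in KO libraries, against 642 and 601 CPM in WT libraries. The groups did not overlap, but the interval of the difference includes 0 (-0.22 ± 0.14, 95% interval -0.55 to 0.11, adjusted p = 0.353).

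Levels were set between genes as CPM per kilobase of exon. The exon length was the union of all annotated exons of a gene, which can be longer than any 1 of its transcripts. It was 11955 bases for Wdr12 and 10188 for Ncl, so places in this order also depend on the annotation. In WT libraries the order began with Ncl (358), Pa2g4 (266), Npm1 (233), Nhp2 (226) and Mybbp1a (208), and in KO libraries the same measure was 246 for Ncl, 193 for Pa2g4, 200.3 for Npm1, 156 for Nhp2 and 120.4 for Mybbp1a. None of these 5 was called by edgeR, and 5 of 5 were lower in KO libraries, with log2 fold changes from -0.79 to -0.22. At the low end, Fbl had 6.88 CPM per kilobase in KO libraries and 8.63 in WT libraries, and Wdr12 had 5.53 and 8.99. The 12 called factors lay between 30.7 (Rrp1b) and 128 (Nop2) CPM per kilobase in WT libraries, at places 8 (Nop2) to 36 (Rrp1b) in the order of the 42.

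**Figure D4:**
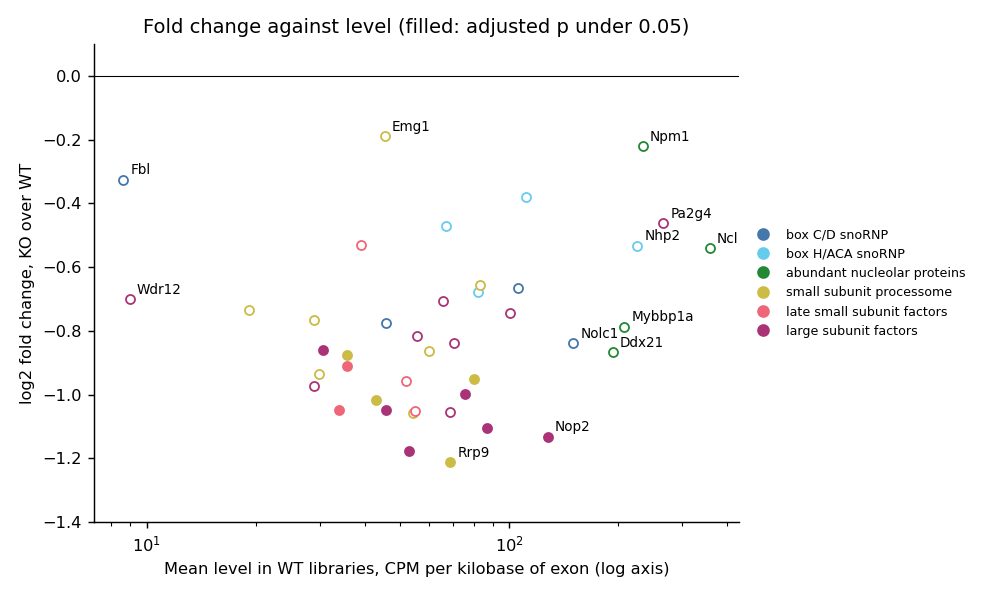
Log2 fold change, KO over WT, of each of the 42 factors against its mean level in WT libraries, coloured by role. Levels are CPM per kilobase of union exon length on a log axis, and filled circles mark an adjusted p under 0.05. The filled points lie between 30.7 and 128 on the level axis, and Ncl at 358 is the rightmost point.

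Some of these counts rest on reads that may not be unique. By alignment of their longest coding transcript, 15 of the 42 have pseudogene copies of at least 90% identity over at least 300 bases in the GENCODE annotation. Rows of such copies held between 23.9% and 25.8% of the summed counts of Wdr12 and its copies, and between 18.5% and 20.9% for Pes1, so the counts of these genes are uncertain. For Tsr1 the share was between 2.26% and 4.34%. Of the other called factors only Rrs1 has such copies, 3 in number. Only 1 of these is a row of the tables, with 0 counts in all 4 libraries, so counts of the others are not known. Fbl has 2 such copies, neither of them a row of the tables. Exons of Tsr1 share 32.3% of their bases with Srr on the opposite strand, those of Wdr3 share 15.7% with Spag17, and those of Bysl share 9.37% with Ccnd3. The use of strand in the counting is not given in the sources used here, so reads of these stretches cannot be told apart.

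Within 8 of the 42 genes lie 23 snoRNAs by the GENCODE annotation; snoRNAs of this kind are commonly cut from introns of their host. Rows existed for 16 of the 23, and the highest count of any of them was 31. Snord53, which lies in Wdr43, had 7 and 6 counts in KO libraries and 31 and 20 in WT libraries. The next highest, Gm22858, also lies in Wdr43 and had 9 and 9 counts in KO libraries and 26 and 14 in WT libraries. Counts as low as these, from total RNA libraries, allow no reading for snoRNAs beyond their values. Rmrp and Rpph1, the RNA parts of enzymes that process ribosomal and transfer RNA, were listed at 0 in all 4 libraries.

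The letters CACGTG are the best known binding sequence of MYC and its partner MAX, and many ribosome biogenesis genes are known MYC targets. Myc itself fell, with 164 and 215 CPM in KO libraries, against 635 and 427 CPM in WT libraries (-1.49 ± 0.24, adjusted p = 0.0397). RefSeq promoter windows (GRCm38.p6, 250 bases before to 50 after a transcript start) were matched for 37 of the 42 factors, and not for Npm1, Bop1, Fbl, Rrs1 and Rrp12. CACGTG, which reads the same on both strands, was in a window of 10 of the 37 (27%), against 11.8% of the 9558 tested genes with a window and 8.09% of all 27025 genes with one. The related CACGCG, on either strand, was in windows of 11 of the 37 (29.7%), against 20.3% of those tested genes and 10.5% of all genes with a window; of the 11 called factors with a window, 2 (18.2%) held it. The windows of the factors had a median of 58.7% G and C, against 60.7% for the tested genes. A match is a description of these letters and not a measured site.

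Of the 11 called factors with a window, 3 held CACGTG (Nop2, Wdr43 and Tsr1). The sequence lay before the start in Nop2 and Imp4 and within the 50 bases after the RefSeq start in the other 8. The upstream window of Nop2 is shown whole because Nop2 is the called factor with the hexamer before its start. It is read 5′ to 3′ on the plus strand (chr6:125131633-125131882), with CACGTG in capitals beginning 60 bases before the start.
Nop2: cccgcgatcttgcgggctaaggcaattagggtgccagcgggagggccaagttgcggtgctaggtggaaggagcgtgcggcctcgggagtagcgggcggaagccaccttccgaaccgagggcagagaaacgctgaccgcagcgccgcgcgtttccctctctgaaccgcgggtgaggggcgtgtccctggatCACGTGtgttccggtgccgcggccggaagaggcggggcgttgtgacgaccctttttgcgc

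The 9 other matches are shown so that their flanks can be compared, each 5′ to 3′ on the strand of its gene, with CACGTG in capitals and up to 12 bases on each side (fewer where the window ends).
Wdr43, chr17:71616220-71616249, plus strand: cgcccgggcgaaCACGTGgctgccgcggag
Tsr1, chr11:74898092-74898121, plus strand: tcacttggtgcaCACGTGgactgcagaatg
Imp4, chr1:34439696-34439725, plus strand: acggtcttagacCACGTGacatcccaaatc
Grwd1, chr7:45830740-45830767, minus strand: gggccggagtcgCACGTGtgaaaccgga
Ltv1, chr10:13193092-13193121, minus strand: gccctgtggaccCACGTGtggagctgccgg
Utp20, chr10:88826765-88826789, minus strand: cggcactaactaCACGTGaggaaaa
Pes1, chr11:3963965-3963994, plus strand: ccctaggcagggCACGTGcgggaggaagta
Mybbp1a, chr11:72441355-72441376, plus strand: gtcttctgagccCACGTGtttg
Nle1, chr11:82908355-82908384, minus strand: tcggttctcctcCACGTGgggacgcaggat
The log2 fold changes of the 10 factors with CACGTG lay between -1.13 (Nop2) and -0.71 (Pes1). Among factors whose windows lack it, only Rrp9 (-1.21) and Ppan (-1.18) were more negative than that range. Within it lay Heatr1 (-1.06), Bysl (-1.05), Gnl3 (-1.05), Wdr75 (-1.02), Ebna1bp2 (-0.997), Wdr3 (-0.88), Ddx21 (-0.87), Rrp1b (-0.86) and Nop14 (-0.86). Nolc1 (-0.84), Nop16 (-0.84), Nip7 (-0.82), Nop58 (-0.77) and Utp15 (-0.77) did so too. The rest were less negative: Wdr12 (-0.70), Dkc1 (-0.68), Nop56 (-0.66), Noc4l (-0.66), Ncl (-0.54), Nhp2 (-0.53), Nob1 (-0.53), Gar1 (-0.47), Pa2g4 (-0.46), Nop10 (-0.38) and Emg1 (-0.19). A link between these letters and the fold change was not tested.

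Beyond the 42, 122 other genes of the pathway were examined in 4 lists chosen by role: 46 of the small subunit, 53 of the large subunit, 9 of snoRNP assembly and 14 of the RNA exosome, which trims precursor RNA. These lists, like the 42, were chosen with earlier results of these data known, so they are not independent support. Of 120 tested, 9 fell and 0 rose by edgeR, against 1.56% and 2.39% of all genes tested. At an unadjusted p under 0.05 in edgeR, 83 were lower and 0 higher, against 12.7% and 12.8% of all genes. DESeq2 called 59 lower (6.14% of all genes tested) and limma-voom 22 (1.7%), and each called 0 higher. The median log2 fold change of the 120 was -0.57, and 114 were negative. By list, 3 of 46 small subunit genes fell (median -0.53), 4 of 52 large subunit genes (-0.72), 1 of 9 assembly genes (-0.48) and 1 of 13 exosome genes (-0.39).

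The 9 were Pwp2, Utp4 and Riok2 (small subunit), Spata5, Nifk, Cebpz and Mdn1 (large subunit), Znhit6 (snoRNP assembly) and Exosc1 (exosome). Pwp2, a core subunit of the processome, had 60.8 and 83.2 CPM in KO libraries, against 186 and 150.3 CPM in WT libraries (-1.22 ± 0.21, adjusted p = 0.0400). Mdn1, the Midasin enzyme that remodels the large subunit precursor, had 193 and 286 CPM in KO libraries, against 616 and 472 CPM in WT libraries (-1.18 ± 0.23, adjusted p = 0.0455). Both stood lowest in KO replicate 1 and highest in WT replicate 1. Exosc1, a cap subunit of the exosome, had 35.6 and 34.9 CPM in KO libraries, against 63.5 and 63.6 CPM in WT libraries (-0.85 ± 0.15, adjusted p = 0.0400). Znhit6, an assembly factor of box C/D snoRNPs, had 17.2 and 22.5 CPM in KO libraries, against 58.0 and 38.1 CPM in WT libraries (-1.28 ± 0.26, adjusted p = 0.0489). All 4 of these genes had both KO libraries below both WT libraries, an order found for 30.1% of all genes tested. They were picked as called, so this order is no separate support.

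Spata5, whose yeast relative is an ATPase that releases a factor from the large subunit precursor, had 30.6 and 37.6 CPM in KO libraries, against 83.0 and 67.6 CPM in WT libraries (-1.14 ± 0.19, adjusted p = 0.0400). Nifk, a nucleolar protein of large subunit processing, had 86.2 and 109 CPM in KO libraries, against 203 and 182 CPM in WT libraries (-0.98 ± 0.18, adjusted p = 0.0408). Cebpz had 78.6 and 93.6 CPM in KO libraries, against 182 and 151 CPM in WT libraries (-0.95 ± 0.18, adjusted p = 0.0421). In these large subunit genes, picked as called, both KO libraries lay below both WT libraries, and WT replicate 1 was the highest library each time. Utp4, a partner of Wdr43 and Wdr75 in the processome, had 101 and 146 CPM in KO libraries, against 245 and 254 CPM in WT libraries (-1.02 ± 0.20, adjusted p = 0.0471). Riok2, a kinase of the late small subunit precursor, had 37.2 and 36.7 CPM in KO libraries, against 89.9 and 62.3 CPM in WT libraries (-1.04 ± 0.21, adjusted p = 0.0488). The 6 genes with a positive log2 fold change, led by Exosc8 (0.39, adjusted p = 0.201), were not called. The median log2 fold change of the 120 was -0.55 without WT replicate 1 and -0.59 without WT replicate 2. It was -0.43 without KO replicate 1 and -0.76 without KO replicate 2.

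**Figure D5:**
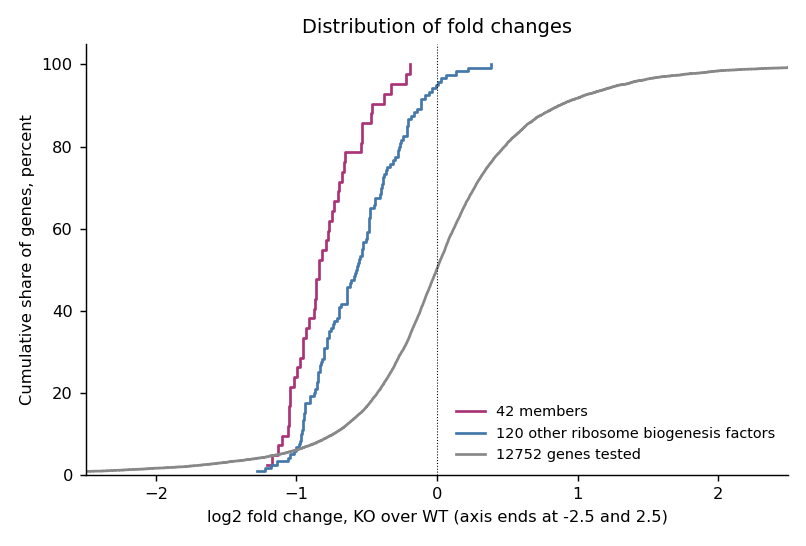
Cumulative share of genes (percent) by log2 fold change, KO over WT, for the 42 factors, 120 other ribosome biogenesis factors and all 12752 genes tested; the axis ends at -2.5 and 2.5. The curve of the 42 reaches 100% at -0.19 with a median of -0.84, the other factors have a median of -0.57 and all genes cross 0 near the middle.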

How the data were processed

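The authors deposited 1 table per library, holding raw whole-number read counts for 31748 gene symbols. The submitters' processing notes name mm10, featureCounts, Subread 2.0.1, R 4.0.4 and DESeq2 1.30.1. Aligner, annotation release, strand setting and treatment of multi-mapping reads were not given in the sources used here. RNA had been depleted of ribosomal RNA, per the labels' protocols. All rows named a gene, and 0 columns of per-sample values were left unused.

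EdgeR 4.0.16 was run in R 4.3.3 on the 12752 genes that passed its filterByExpr function (minimum count 10, minimum total 15). Libraries were scaled by TMM (factors 0.968 to 1.027). KO was compared with WT over all 4 libraries by edgeR's quasi-likelihood test with no covariate. P-values were adjusted by Benjamini-Hochberg over all genes tested, with a threshold of 0.05. The method was tested on simulated data. SEs come from the quasi-likelihood F statistic. Error values with ± are SEs with n = 2 libraries per group. CPM were computed on TMM-scaled library totals, and CPM per kilobase divides them by the union exon length of GENCODE M21 (GRCm38, the assembly of mm10). Copies were searched with BLAST 2.17.0. Alternatives were DESeq2 1.42.0, limma-voom (limma 3.58.1), other scalings, no filter, a replicate term and leaving out each library.

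The members, roles and gene lists were chosen with earlier results of these data known. Of the 176 list entries, 172 were matched to rows; Terc, Rn45s, Hbb-bs and Trac were not. Values in every library are given for each called member and, in each role, for the member with the highest mean CPM and those with the largest and smallest absolute log2 fold change, and for the other factors called. Fold changes are KO over WT.

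Chi-square divided by its degrees of freedom was 15.95 between the KO libraries and 40.06 between the WT libraries, above counting noise, so no library was taken for a second deposit of another; this does not show that they came from separate cultures or animals.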

Additional observations from a re-analysis of the deposited data

How the results depend on the processing

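The log2 fold change of each of the 42 factors kept its sign under every alternative but 1: Fbl stood at 0.0045 without KO replicate 1 (adjusted p = 0.995 by edgeR) and lay between -0.76 and that value when any 1 library was left out. Their median lay between -0.89 and -0.83 with all libraries, and between -1.03 (without KO replicate 2) and -0.65 (without KO replicate 1) when a library was left out. The count of members called higher was 0 in every fit. The number called lower moved from 12 to 34 without the filter, 35 by DESeq2, 21 by limma-voom and 27 with the replicate block, and was between 0 and 30 when a library was left out. For the other factors the number called lower moved from 9 to 5 with upper quartile factors, 51 without the filter, 59 by DESeq2, 22 by limma-voom and 30 with the replicate block, and was between 0 and 51 when a library was left out. Over all genes, 305 higher and 199 lower became 737 and 682 without the filter, 860 and 783 by DESeq2, and 488 and 401 with the replicate block, and 122 were lower with upper quartile factors; leaving out a library gave between 0 and 1423 higher and between 0 and 1101 lower. The cause was not tested. With 1 library left in a group, its spread is assumed to be that of the other pair. All 12 called members stayed called under each alternative with all libraries except upper quartile factors, which kept 8. The labels do not say that a replicate number pairs libraries. Deviations of KO and WT replicate 1 from their group means had a correlation of 0.040 over 12752 genes. With 2 libraries per group, this value cannot show whether libraries were paired or shared a culture.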
